A study of Mus musculus with 8 samples.

Results

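The cytosolic ribosomal protein genes encode the protein subunits of the ribosomes that translate nuclear-encoded mRNAs. They were taken by symbol, as Rpl or Rps followed by a number together with Rplp0, Rplp1, Rplp2 and Rpsa, without the Rps6k kinases, symbols ending in l after the number, pseudogenes, and Rps19bp1 and Rps23rg1, which are named for other proteins. This gave 55 genes among the 16026 genes tested, 34 of the large and 21 of the small subunit, and all 55 passed the filter on low signal. They were measured on 8 whole-transcript arrays of RNA labelled as cervical spinal cord from male C57BL/6 mice, described as 6 weeks old when obtained. The MPTP group received the neurotoxin MPTP at 20 mg/kg daily for 4 weeks and no needling. The acupoint group received MPTP and was needled by hand at GB34 and LR3, on the leg and foot, in 14 sessions at 48 h intervals, and the non-acupoint group received MPTP and the same needling at both hips. Control mice received saline for 4 weeks. Each group had 2 arrays, called replicates 1 and 2. The labels number 1 mouse per array, while the protocol speaks of 9 mice in the control and in the MPTP group, so it is unclear whether RNA of several animals was combined. p-values and errors therefore describe the spread of these arrays alone, part of which may be technical.

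A ribosome is built from a small subunit, which binds the mRNA and decodes it, and a large subunit, which joins the amino acids. Most ribosomal proteins occur once in each ribosome, and their genes are among the most highly expressed housekeeping genes in every tissue, neurons and glia included. Their mRNAs begin with a terminal oligopyrimidine tract, a C followed by a run of pyrimidines, through which the kinase complex mTORC1 and the RNA-binding protein LARP1 control their translation. The genes have many processed pseudogenes in mammals, so probes can match several places in the genome.

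To look for such a tract, the first 30 bases from the annotated start site are given below. They cover the genes that fell after MPTP and have a promoter entry in RefSeq (build GRCm38.p6), followed by the 3 genes with the largest positive differences. Capitals mark the first pyrimidine run that holds CTTTT or CTTTC or CTTCC or CCTTT or CCTTC on the transcribed strand, where the window has any. These letter groups overlap one another.
Rpl12, chr2:32961712-32961741, plus strand: gTCTTTTCggctttcggctcggaggaggca
Rps28, chr17:33824533-33824562, minus strand: ctcgcgagagcgaaagtgaggcgtggtcag
Rpl36a, chrX:134585654-134585683, plus strand: gcctataaaCTTCCgttgcggctctagcct
Rpl37a, chr1:72711260-72711289, plus strand: taaaaccgcgcatgcgcattgcgTCCCTTC
Rps12, chr10:23787180-23787209, minus strand: accgccggCCTTTTCCCCTgccgccgccga
Rpl41, chr10:128549139-128549168, minus strand: ggaagtgacgacaccgagcacgccattaaa
Rps10, chr17:27635215-27635244, minus strand: CTTCCTTTCCagcctccgcctcggaccctg
Rpl24, chr16:55966275-55966304, plus strand: ggaaacagactgggcgctcggaagtgacat
Rps4x, chrX:102189362-102189391, minus strand: gcaacccaggctccagcgcgcgcgcagcct
Rpl10, chrX:74270816-74270845, plus strand: gataggccgcctatataaggcgtgagcagg
Rpl4, chr9:64173387-64173416, plus strand: gagcagccgggtagagaggagcgtggcctt
Rplp0, chr5:115559467-115559496, plus strand: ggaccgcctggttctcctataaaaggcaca
In Rps10 the run began at the annotated start itself, in Rpl12 at base 2, and in Rps12, Rpl36a and Rpl37a at bases 9, 10 and 24. Of the marked runs only that of Rps10 thus stood at the annotated start, and a run further in need not be the tract. Whether the annotated starts are those of the mRNAs in these cords was not tested. Of the 55 genes 44 had an entry, with 51 start sites in all. Within the 50 bases from the start, 58.8% of these 51 promoters held one of the letter groups, against 23.9% of all 32851 promoters in the table. The share was 55.6% (5 of 9) for genes that fell after MPTP and 59.5% (25 of 42) for the others. CGGAAGT, letters of an Ets-type site, stood on either strand within 250 bases before to 50 after the start in 33.3% of the 51 promoters and in 6.42% of all promoters. For CGGAAGT the share was 55.6% (5 of 9) for genes that fell after MPTP and 28.6% (12 of 42) for the others. The differences between these shares were not tested.

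Most ribosomal protein genes were lower after MPTP than after saline, by modest amounts, on arrays where genes of like signal were mostly higher. On the log2 scale, 41 of the 55 differences were negative and the median was -0.13, while the median over all 16026 genes was 0.06. In limma, 12 of the 55 fell at an adjusted p under 0.05 and 0 rose. Over all genes 3.1% were called lower and 13.7% higher. All small subunit genes except Rpsa and Rps9 had negative differences on the probe sets used. The scaling of the arrays moved these values: with each array centred on its median, the median gene shifted to 0.22 and the ribosomal protein genes to 0.03, which is -0.19 relative to the median gene, as it was with the deposited scaling. In that scaling 0 of the 55 were called lower and 1, Rplp0, higher, beside 1.36% of all genes lower and 25.1% higher. After cyclic loess 21 were called lower, beside 4.69% of all genes. The mean of 15 skeletal muscle markers was also lower, at 5.86 and 5.8 in MPTP cords, against 7.48 and 8.94 in control cords. Without control replicate 2 the median over the 55 genes was -0.04, against 0.06 over all genes. The 12 genes, chosen with that array in the fit, kept a median of 0.814 of their difference.

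**Figure D1:**
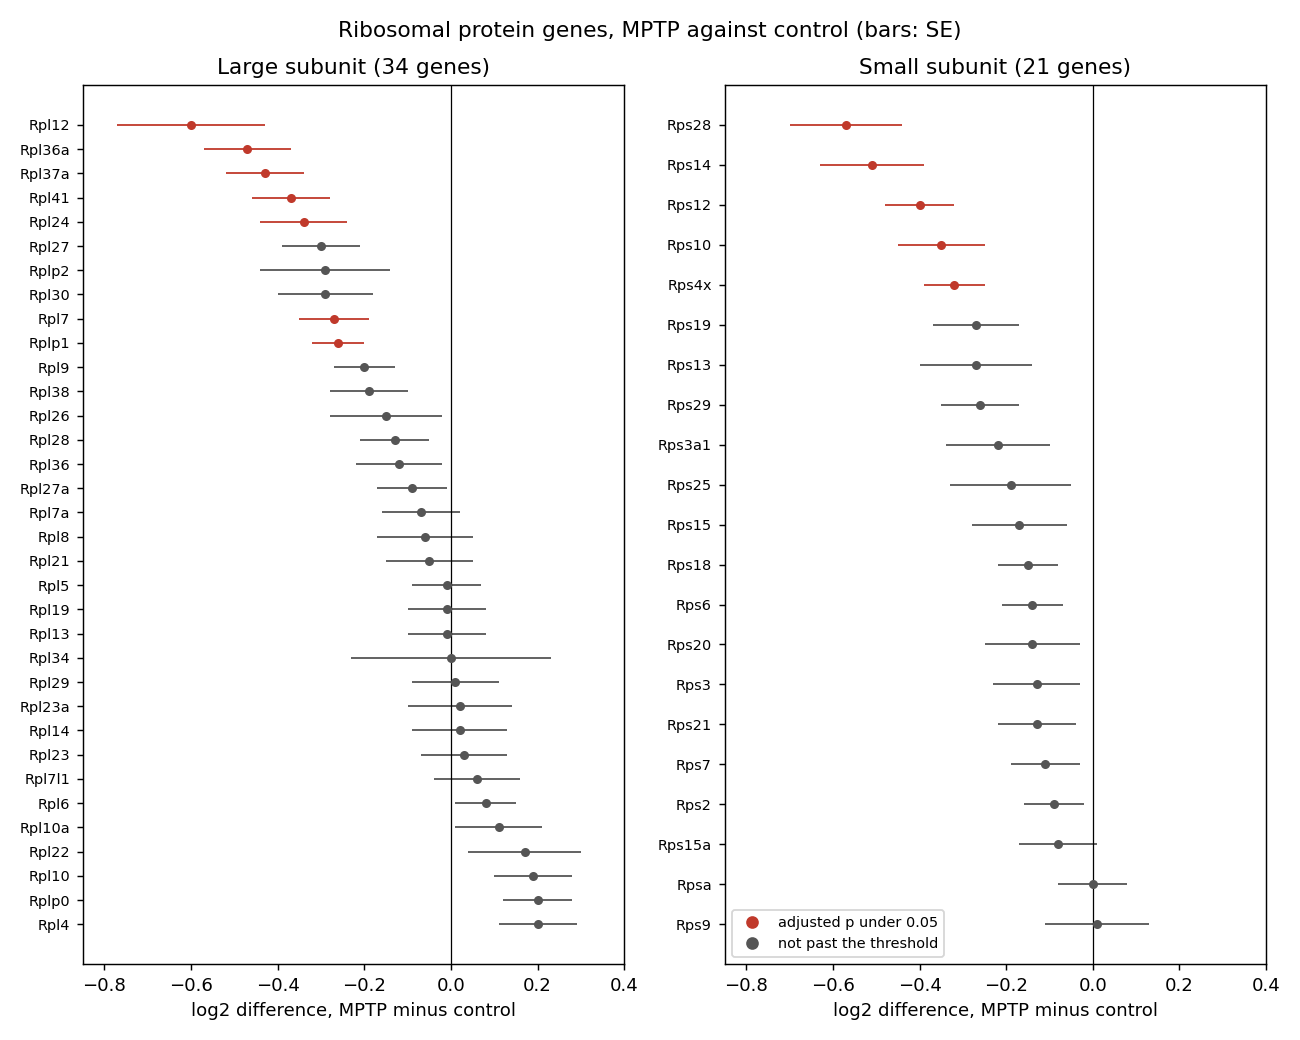
Log2 difference of MPTP minus control with its SE (horizontal axis) for each of the 34 large and 21 small subunit genes (vertical axis), with genes past an adjusted p of 0.05 in red. The 12 red points, 7 large and 5 small subunit genes, lie at -0.6 to -0.26, and the large subunit genes reach 0.2 at the other end.

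Among small subunit genes that fell, Rps28, whose protein lies near the mRNA exit, had the largest difference. Its log2 signal was 8.24 and 8.43 in MPTP cords, 8.28 and 8.31 with acupoint needling, 8.43 and 8.18 with needling at the hips, against 8.75 and 9.05 in control cords. Every MPTP-treated array was below both controls, and the fall was 1.48-fold (log2 difference -0.57, SE 0.13, limma adjusted p = 0.0168). Rps14, whose human counterpart is lost in a form of myelodysplastic syndrome, had 10.36 and 10.4 in MPTP cords, 10.6 and 10.19 with acupoint needling, 10.2 and 10.27 with needling at the hips, against 10.79 and 10.99 in control cords. The acupoint replicates of Rps14 lay far apart, and both were still below the controls. The MPTP difference of Rps14 was -0.51 (SE 0.12, limma adjusted p = 0.0236).

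Rps12, a protein of the small subunit's beak, was at 9.77 on both MPTP arrays, 9.75 and 9.7 in acupoint cords, then 9.87 and 9.74 in non-acupoint cords, against 10.12 and 10.23 in control cords. The 6 treated arrays of Rps12 were close to each other and separate from the controls, with a difference of -0.4 (SE 0.08, limma adjusted p = 0.00938). Rps10, mutated in some human Diamond-Blackfan anaemias, was at 9.85 and 9.78 in MPTP cords against 10.04 and 10.28 in control cords (difference -0.35, SE 0.10, limma adjusted p = 0.0464). Rps4x, which is X-linked, was at 9.49 and 9.44 in MPTP cords against 9.75 and 9.81 in control cords (difference -0.32, SE 0.07, limma adjusted p = 0.0179). The control replicates of Rps4x and Rps12 differed by less than the gap to any treated array. The other 16 small subunit genes ran from -0.27 (Rps19 and Rps13) to 0.01 (Rps9) without passing. Among them were Rps6, the target of S6 kinase, at -0.14 (SE 0.07, limma adjusted p = 0.205), and the 2 genes with no negative difference, Rpsa and Rps9.

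Of the large subunit, Rpl12, whose protein sits at the base of the stalk where elongation factors bind, was the dimmest gene called. It had 5.1 and 4.98 in MPTP cords, 4.64 and 4.83 with acupoint needling, 4.73 and 5.12 with needling at the hips, against 5.72 and 5.57 in control cords (MPTP minus control -0.6, SE 0.17, limma adjusted p = 0.0356). All 6 treated arrays were below both controls, at a signal close to the filter value of 4.3. The only probe set of Rpl12 stood at the 13.8th percentile of all genes, and how well it reports the gene was not tested. Rpl36a, an X-linked gene for a protein near the exit site of the tRNA, had 9.66 and 9.68 in MPTP cords, 9.54 and 9.64 with acupoint needling, 9.7 and 9.65 with needling at the hips, against 9.99 and 10.28 in control cords. For Rpl36a the controls differed more from each other than the 6 treated arrays did, and the MPTP difference was -0.47 (SE 0.10, limma adjusted p = 0.0129). Rpl37a was at 9.25 and 9.16 in MPTP cords against 9.57 and 9.71 in control cords, a fall of 1.35-fold (log2 difference -0.43, SE 0.09, limma adjusted p = 0.0111).

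Rpl41, which encodes a very short basic peptide, had 10.46 and 10.47 in MPTP cords, 10.26 and 10.32 with acupoint needling, 10.56 and 10.62 with needling at the hips, against 10.7 and 10.96 in control cords. The groups did not overlap, with acupoint arrays lowest and control arrays highest, and the MPTP difference was -0.37 (SE 0.09, limma adjusted p = 0.0238). Rpl24, part of a bridge between the subunits, and Rpl7 fell by 0.34 (SE 0.10, adjusted p = 0.0474) and 0.27 (SE 0.08, adjusted p = 0.0462) in limma, both close to the threshold. Rpl4, which lines the exit tunnel, and Rpl10, an X-linked gene for a protein near the peptidyl transferase centre, lay at the other end. Rpl4 was at 11.61 and 11.75 in MPTP cords against 11.49 and 11.47 in control cords (difference 0.2, SE 0.09, limma adjusted p = 0.184). Rpl10 was at 12.24 and 12.08 in MPTP cords against 12.01 and 11.93 in control cords (difference 0.19, SE 0.09, limma adjusted p = 0.205). Neither passed, although their MPTP arrays did not overlap with the controls. Such separation above the controls was common, with 41.9% of all genes showing it in MPTP minus control. Among the 55 ribosomal protein genes 6 did. Rpl4 was called higher when either acupoint array was left out (limma adjusted p = 0.0421 and 0.0426).

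The stalk proteins, which recruit elongation factors, were not of 1 direction. Rplp1 had 11.84 and 11.8 in MPTP cords, 11.83 and 11.75 with acupoint needling, 11.77 and 11.71 with needling at the hips, against 12.06 and 12.1 in control cords. It fell by 0.26 (SE 0.06, limma adjusted p = 0.0234). Its partner Rplp2 was at 4.99 and 4.89 in MPTP cords against 5.18 and 5.29 in control cords (difference -0.29, SE 0.15, limma adjusted p = 0.229). Rplp0, which anchors both on the ribosome and is often used as a reference gene, was at 11.22 and 11.39 in MPTP cords against 11.14 and 11.06 in control cords (difference 0.2, SE 0.08, limma adjusted p = 0.13). Of Rplp0, Rplp1 and Rplp2 the fall was called for Rplp1, and the differences between stalk genes were not tested. Rpl19, another common reference gene, was at -0.01 (SE 0.09), and Rpl7l1, a paralog of Rpl7, at 0.06 (SE 0.10).

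**Figure D2:**
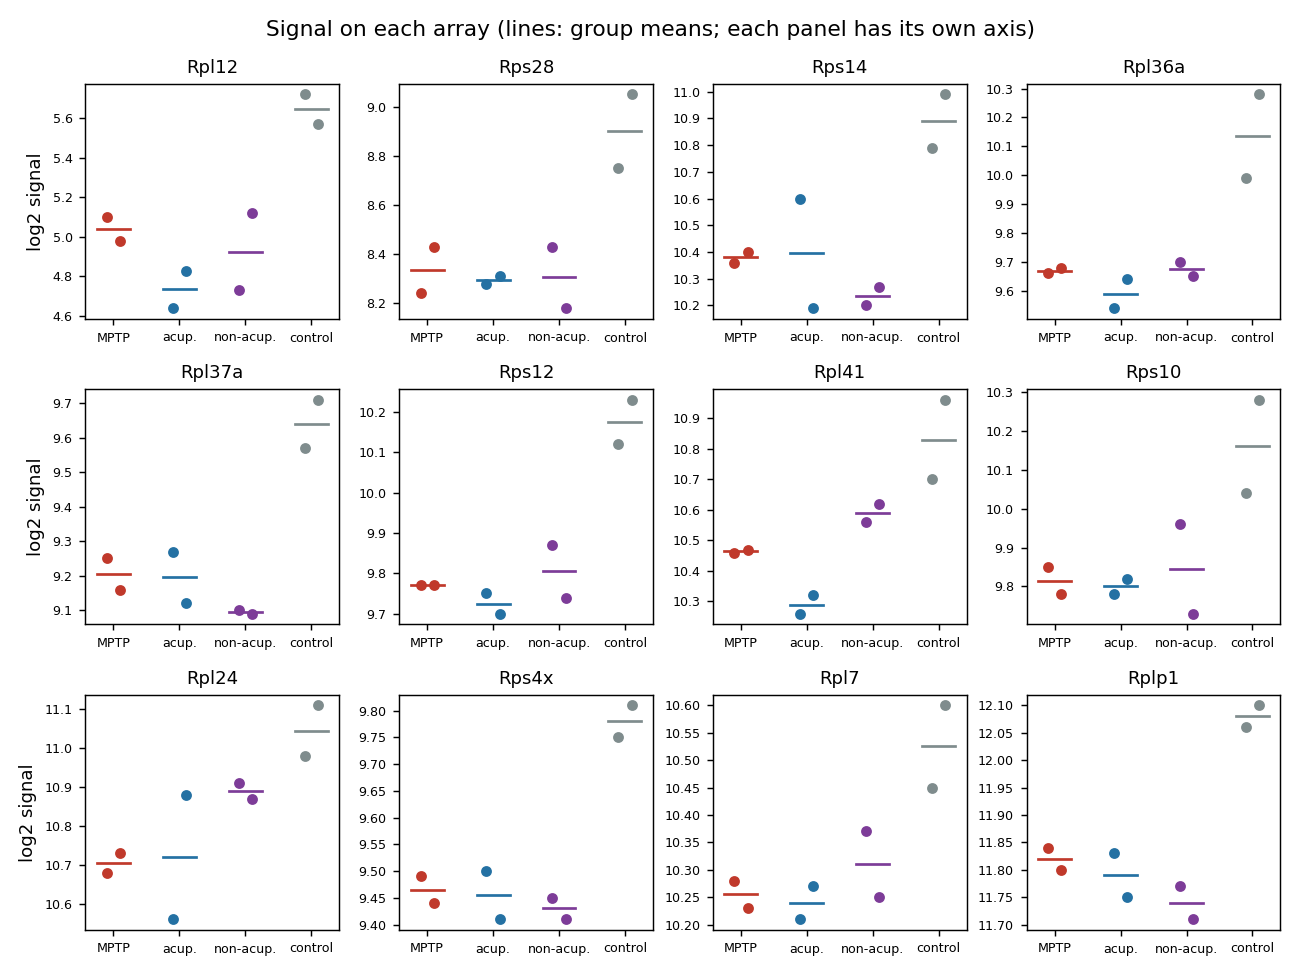
Log2 signal (vertical axes, each panel on its own range) on each of the 2 arrays of the MPTP, acupoint, non-acupoint and control groups for the 12 genes that fell after MPTP, with lines at the group means. In every panel the control points lie above all 6 treated points, and control replicate 1 is below replicate 2 in each panel except Rpl12.

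Negative differences were spread over both subunits. In MPTP minus control the median was -0.07 over the 34 large subunit genes, with 22 negative, and -0.17 over the 21 small subunit genes, with 19 negative. The called share was 20.6% of large subunit genes (7) and 23.8% of small subunit genes (5), read against 3.1% of all genes called lower. Both MPTP arrays lay below both controls for 13 large subunit genes (38.2%) and 16 small subunit genes (76.2%), against 22.1% of all genes. Genes of 1 subunit are not replicates, and the difference between subunits was not tested.

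By array, the mean over large subunit genes relative to the control mean was -0.11 on both MPTP arrays, -0.26 and -0.13 on acupoint replicates 1 and 2, -0.1 and -0.12 in non-acupoint cords, and -0.07 and 0.07 on control replicates 1 and 2. Over small subunit genes it was -0.23 and -0.2 in MPTP cords, -0.33 and -0.24 with acupoint needling, -0.19 and -0.26 with needling at the hips, and -0.08 and 0.08 in control cords. On every treated array the small subunit mean was the lower of the pair. By these means control replicate 1 lay between control replicate 2 and the treated arrays for both subunits. By the median signal of the 55 genes it did not, at 10.17 against 10.35 on control replicate 2. That median was 9.83 on acupoint replicate 1 and 10.16 to 10.19 on the other treated arrays. Its pooled SD between replicates was 0.142. Without control replicate 2 the median over the 55 genes was -0.04, against 0.06 over all genes, and 0 of the 55 were called, while calls over all genes dropped to 0.774% lower and 3.48% higher. The 12 genes called with all arrays were at -0.68 to -0.19 there. Both controls lay above both MPTP arrays in each of these 12, so leaving out 1 array could not turn a sign. None of the 55 was called without MPTP replicate 1 or without MPTP replicate 2 either, where the 12 genes were at -0.67 to -0.28 and -0.66 to -0.24 and 1 array stood for a group, assumed to vary like the other groups. These fits called few genes of any kind, 0.156% of all genes lower without MPTP replicate 1 and 0.281% without MPTP replicate 2. With control replicate 2 and acupoint replicate 1 both left out, added after seeing the data, 11 were called lower and 1 higher, in a fit that called 5.69% of all genes lower and 19.7% higher.

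Most of these genes are bright on the array, with 38 of the 55 in the brightest 10% of all genes. Signal strength and the difference from control were related over all genes, since the median MPTP difference was -0.06 in the dimmest 10% and 0.22 in the brightest. In that brightest 10% 2.74% of the 1603 genes were called lower and 37.4% higher, while 9 of the 38 ribosomal protein genes were called lower and 0 higher, and their median was -0.13. The mean over the brightest 10% was 0.22 and 0.21 above the control mean in MPTP cords, 0.12 and 0.23 with acupoint needling, 0.24 and 0.21 with needling at the hips, and at 0.02 and -0.02 in control cords. Ribosomal protein genes in that 10% were at -0.13 and -0.12 in MPTP cords, -0.29 and -0.15 with acupoint needling, -0.1 and -0.16 with needling at the hips, and -0.08 and 0.08 in control cords. On all 6 treated arrays they lay below the average bright gene.

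**Figure D3:**
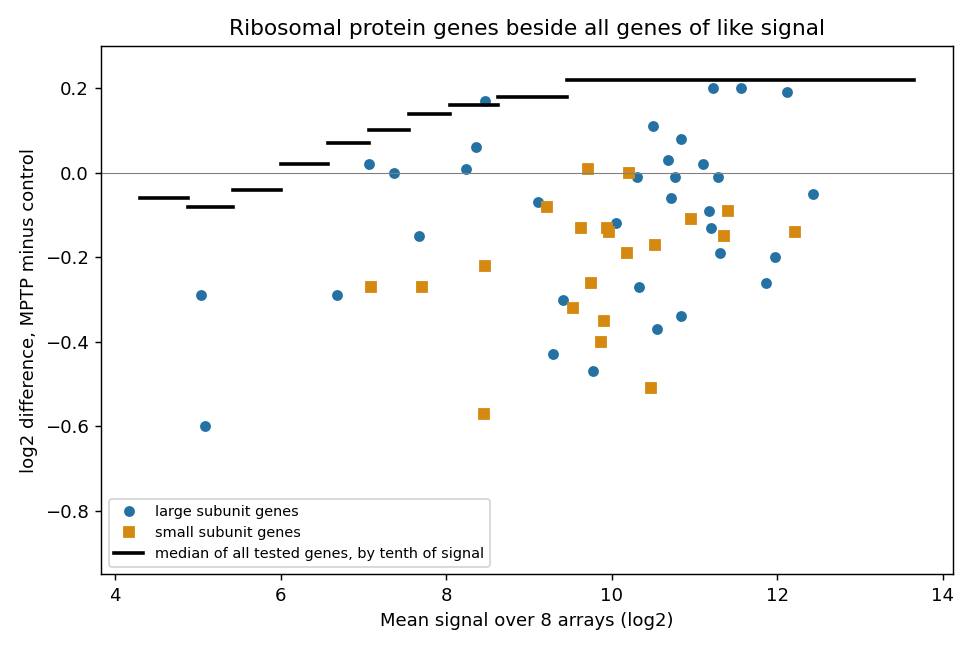
Log2 difference of MPTP minus control (vertical axis) against mean log2 signal over the 8 arrays (horizontal axis) for large (circles) and small (squares) subunit genes, with black lines at the median of all tested genes in each of 10 equal bins of signal. The lines climb to 0.22 in the brightest 10%, and all 38 ribosomal protein genes there lie below the line.

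The tissue samples differed in more than treatment. Neuronal, astrocyte and oligodendrocyte markers were bright on all arrays, with higher means in MPTP cords. Neuronal means were 11.06 and 11.04 in MPTP cords, against 10.75 and 10.7 in control cords, and astrocyte means 10.48 and 10.4, against 9.92 and 9.78. Oligodendrocyte means were 11.38 and 11.33 in MPTP cords, against 11.08 and 11.11 in control cords. Of 5 microglial markers 3 rose after MPTP, as did Alas2, a gene of haem synthesis in red cell precursors (2.45, SE 0.38, limma adjusted p = 0.00543). The mean of 2 peripheral nerve markers was 7.48 and 9.17 in MPTP cords, 9.96 and 7.49 with acupoint needling, 7.55 and 8.01 with needling at the hips, and 10.26 and 7.17 in control cords. Acupoint replicate 1 and control replicate 1, where it was highest, had the lower ribosomal protein mean of their groups. So had non-acupoint replicate 2, at -0.17 against -0.13 relative to the control mean. MPTP replicate 2, with the higher nerve mean of its group, had not, at -0.14 against -0.15. All 15 skeletal muscle markers tested had signal above the filter. In MPTP minus control 11 of the 15 fell and 0 rose. Their mean was 6.99 and 5.63 with acupoint needling and 5.56 and 5.94 with needling at the hips, beside the MPTP and control values above. Control replicate 2 thus had both the highest muscle signal and the highest ribosomal protein signal, while acupoint replicate 1 had more muscle signal than any other treated array and the lowest ribosomal protein signal of all. With the muscle mean as a covariate the median over the 55 genes was -0.11 and 0 were called, in a fit that called 4 genes in all. Muscle signal was higher on both control arrays than on any treated array, so the covariate overlaps with treatment and that fit cannot decide the part of muscle. The part of muscle, nerve or blood in these differences was not tested. In bulk tissue fewer cells of a type and less RNA per cell cannot be told apart.

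**Figure D4:**
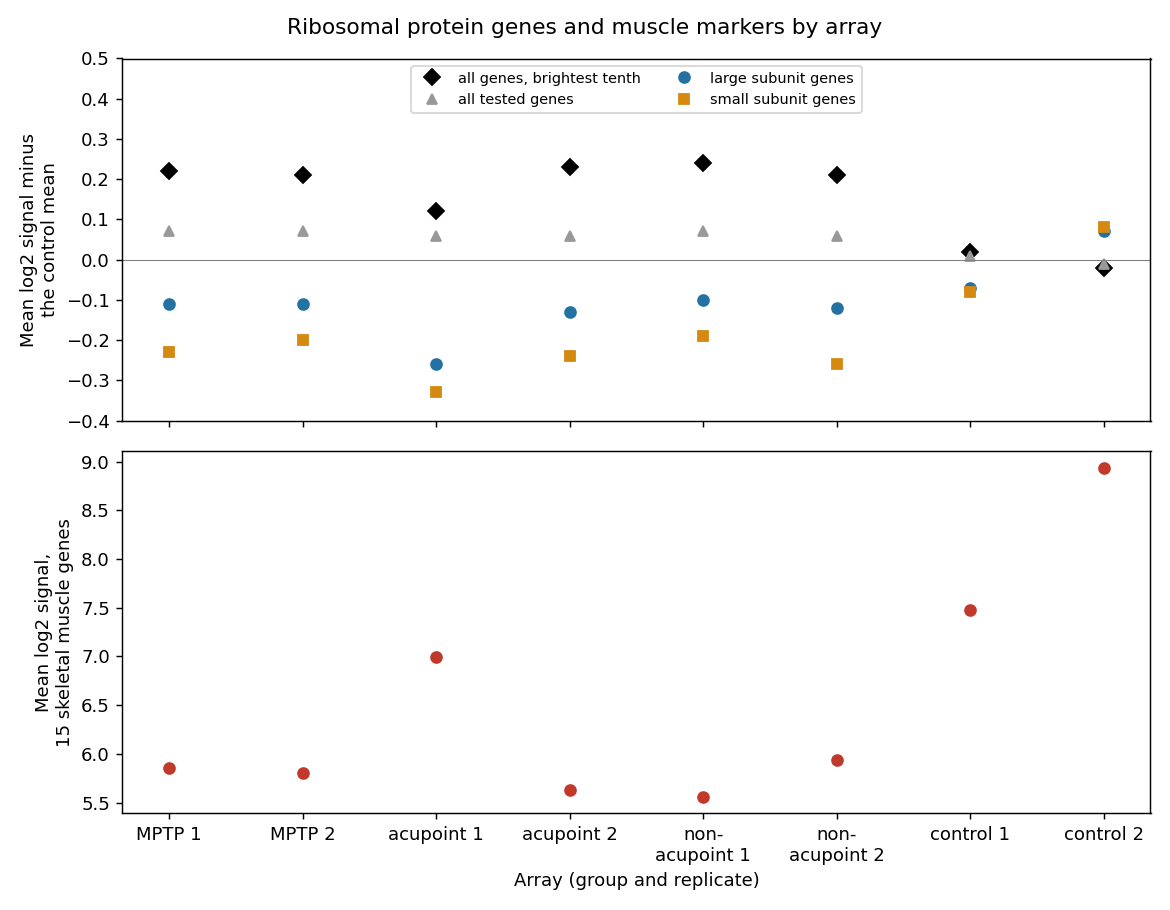
Upper panel, mean log2 signal minus the control mean (vertical axis) of large and small subunit genes, all tested genes and the brightest 10% on each array (horizontal axis); lower panel, mean log2 signal of 15 skeletal muscle genes. Ribosomal protein means are lowest on acupoint replicate 1 (-0.26 and -0.33) and highest on control replicate 2 (0.07 and 0.08), while muscle signal is highest on control replicate 2 (8.94).

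Neither kind of needling changed a ribosomal protein gene past the threshold relative to MPTP alone. For acupoint needling minus MPTP the median over the 55 genes was -0.07, with 49 negative, against -0.01 over all genes. In limma 0 of the 55 and 0 of the 16026 genes (0% of all) were called, and eBayes without a trend called 0 of the 55 as well. At an unadjusted p under 0.05 there were 2 of the 55, against 201 of all genes. They were Rpl4 (difference -0.23, SE 0.09) and Rpl6 (difference -0.18, SE 0.07), both with a limma adjusted p of 1. Rpl12 and Rpl23a had the largest negative differences, -0.3 (SE 0.17) and -0.24 (SE 0.12). Rpl23a was at 10.74 and 11.12 in acupoint cords, against 11.2 and 11.15 in MPTP cords, so acupoint replicate 1 carried most of its difference. Without that replicate the median over the 55 genes was -0.02. The largest positive differences were 0.06 for Rps19 and 0.04 for Rps29.

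For non-acupoint needling minus MPTP the median was 0, with 29 negative and 26 positive. No gene of the 55 was called in limma or had an unadjusted p under 0.05, against 0 called (0% of all) and 273 of all genes at that unadjusted p. Differences ran from -0.16 (Rpl26, SE 0.13) and -0.15 (Rps14, SE 0.12) to 0.16 (Rpl21, SE 0.10) and 0.18 (Rpl24, SE 0.10). Rpl24 was at 10.91 and 10.87 in non-acupoint cords against 10.68 and 10.73 in MPTP cords.

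In acupoint minus non-acupoint needling the median was -0.08, with 44 negative and 11 positive, and limma again called 0 of the 55 and 0% of all genes (2 and 604 at an unadjusted p under 0.05). Rpl41 was at 10.26 and 10.32 in acupoint cords, against 10.56 and 10.62 in non-acupoint cords, the largest difference of the family (-0.3, SE 0.09, limma adjusted p = 0.936). Rps25, next in size, was at 9.74 and 10.21 in acupoint cords, against 10.28 and 10.17 in non-acupoint cords. Rps6 was at 12.01 and 12.17 in acupoint cords, against 12.3 and 12.31 in non-acupoint cords (difference -0.22, SE 0.07, limma adjusted p = 0.936). The largest positive differences were those of Rpl26 (7.58 and 7.79 against 7.48 and 7.54) and Rps14 (10.6 and 10.19 against 10.2 and 10.27). Without acupoint replicate 2, 5 of the 55 were called lower, along with 3.37% of all genes, and without acupoint replicate 1 none was and the median was -0.01. The direction of this comparison therefore rested largely on acupoint replicate 1.

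Each needled group was also set against saline, with the same 2 control arrays as above, so these comparisons are not independent of it. In acupoint needling minus control 10 of the 55 fell and 0 rose (2.17% of all genes were called lower and 9.55% higher), with a median of -0.22 and all 21 small subunit genes negative. Both acupoint arrays lay below both control arrays for 34 of the 55 genes (61.8%, against 15.6% of all genes) and above them for 2, Rplp0 and Rpl10 (33.2% of all genes). The number called lower was 0 without control replicate 2 (0.337% of all genes), 18 without acupoint replicate 2 (2.63%), 17 without control replicate 1 (1.84%), and 6 with MPTP replicate 1 (0.992%) or 2 (0.998%) left out. With only the acupoint and control arrays in the fit, 0 of the 55 and 0.275% of all genes were called lower, with the differences unchanged. In non-acupoint needling minus control 9 fell and 0 rose (3.87% of all genes lower and 15.4% higher), with a median of -0.14. Both non-acupoint arrays lay below both control arrays for 28 of the 55 genes (50.9%, against 23.8% of all genes) and above them for 5 (40.2% of all genes). The number called lower was 2 without control replicate 2 (1.17% of all genes), 1 and 3 without non-acupoint replicates 1 and 2 (0.549% and 1.08%), 15 without control replicate 1 (2.82%), and 14 with acupoint replicate 1 (6.56%) or 2 (6.59%) left out. Rpl12 was at -0.91 (SE 0.17, adjusted p = 0.0116) in the acupoint and -0.72 (SE 0.17, adjusted p = 0.0173) in the non-acupoint comparison in limma, and Rps28 at -0.6 in both (SE 0.13). Rps14 was at -0.5 and -0.66, Rpl37a at -0.44 and -0.54, and Rpl36a at -0.55 and -0.46, all past the threshold in the fit to all 8 arrays.

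With the 3 MPTP-treated groups averaged and set against control, 17 of the 55 fell and 0 rose, against 5.35% of all genes called lower and 19.9% higher. The median was -0.18, with 47 negative, and -0.23 over the small subunit, all 21 of whose genes were negative. The 12 genes above were all among them, joined by Rpl27, Rpl30, Rps29, Rps21 and Rpl9. Rpl9 was at 11.93 in both MPTP cords, 11.91 and 11.9 with acupoint needling, 11.93 and 11.86 with needling at the hips, and 12.06 and 12.21 in control cords (difference -0.22, SE 0.06, limma adjusted p = 0.0178). Rpl27, like Rps29 and Rps10 mutated in rare human Diamond-Blackfan anaemias, was at 9.35 and 9.31 in MPTP cords, 9.35 and 9.31 with acupoint needling, 9.45 and 9.26 with needling at the hips, and 9.53 and 9.72 in control cords (difference -0.29, SE 0.08, limma adjusted p = 0.0224). In both genes every treated array lay below both controls. Rpl30 was at -0.3 (SE 0.09, limma adjusted p = 0.0321), Rps29 at -0.25 (SE 0.08, adjusted p = 0.0393) and Rps21 at -0.23 (SE 0.07, adjusted p = 0.0397), and for Rps21 the second MPTP array, at 10.03, was above the lower control at 10.01. Rpl10 and Rplp0 had all 6 treated arrays above both controls, with differences of 0.19 (SE 0.08, limma adjusted p = 0.0999) and 0.15 (SE 0.07, adjusted p = 0.138) that did not pass. Rpl34 was the least reproducible gene among the controls, at 6.95 and 7.8, and its difference of -0.01 had an SE of 0.19. For 24 of the 55 genes (43.6%) all 6 treated arrays lay below both control arrays, against 10.9% of all genes, and for 2 all 6 lay above (26.1% of all genes). Leaving out 1 array moved the median over the 55 genes to between -0.27 and -0.06, the latter when control replicate 2 was dropped. Centring each array gave 6 lower, beside 2.19% of all genes, and 2 higher, beside 33.8% of all genes.

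Several probe sets carry most of these genes, and they mostly moved alike. The file held 210 probe sets with a ribosomal protein gene as their only symbol, and 38 of the 55 genes had more than 1, up to 14 for Rps12. For 27 of these 38 genes all probe sets had MPTP differences of 1 sign. The 14 probe sets of Rps12 lay at -0.49 to -0.35, the 7 of Rps28 at -0.57 to -0.49 and the 6 of Rpl10 at 0.18 to 0.22. Rpl21 spread from -0.19 to 0.18 over 9 probe sets, and for Rps15, Rps2 and Rpl7a, among others, the sign depended on the probe set. For Rps9 the second probe set, of mean signal 9.64 against 9.71 for the one used, was at -0.18, and 4 of the 5 probe sets of Rpsa were negative, down to -0.14. The 155 probe sets not used had a median of -0.12, with 121 negative, close to the -0.13 of the 55 used. Some probe sets had identical values on all 8 arrays (the 14 of Rps12 held 8 distinct profiles and the 3 of Rpl41 held 1), so they are not independent readings, and signal from pseudogene copies cannot be told apart from that of the parent gene.

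**Figure D5:**
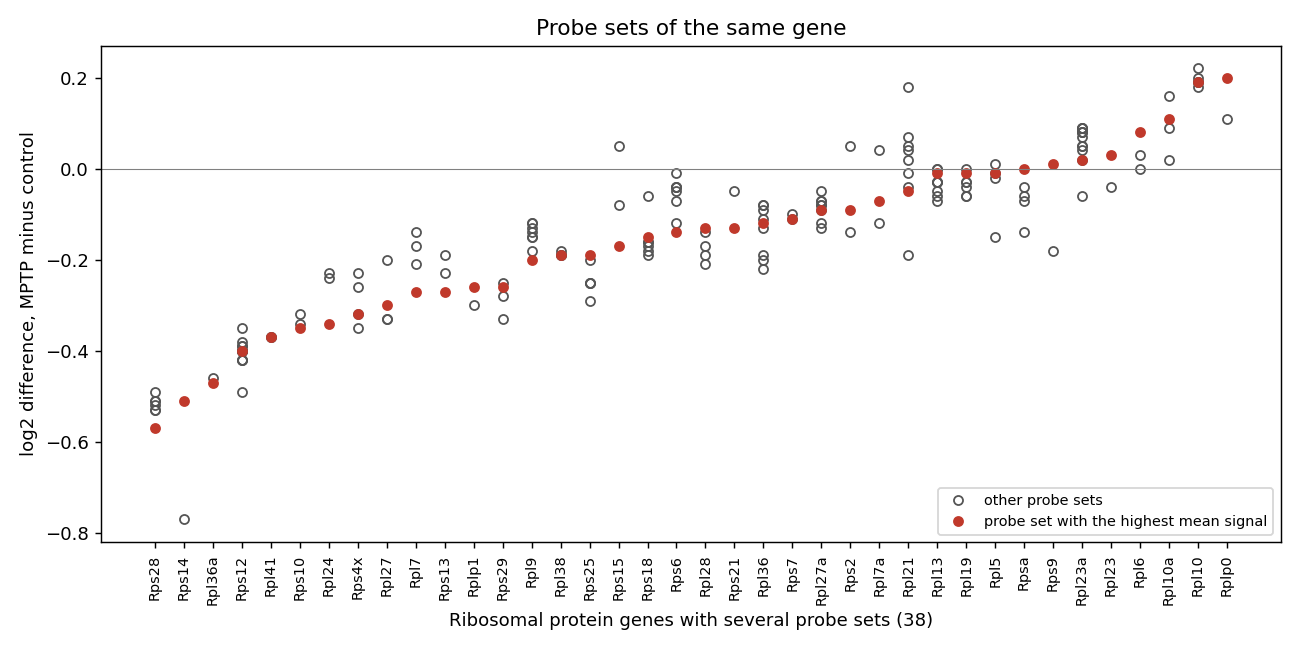
Log2 difference of MPTP minus control (vertical axis) of every probe set of the 38 genes with several probe sets (horizontal axis, ordered by the probe set used), with the probe set of highest mean signal filled in red. Probe sets of Rps12 span -0.49 to -0.35, and those of Rpl21 fall on both sides of 0.

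Other parts of the translation machinery, measured in MPTP minus control with the deposited scaling alone, did not show the lower values of the ribosomal proteins. Of 44 genes for ribosome biogenesis, 16 rose and 0 fell (median 0.27), led by Nolc1, a nucleolar phosphoprotein (0.64, SE 0.10), and Pes1, needed to mature the large subunit (0.59, SE 0.10). Of 48 genes with an Eif symbol, mostly initiation factors, 14 rose and 0 fell (median 0.18). The rises were led by Eif4h (0.61, SE 0.07), a helper of a helicase of initiation, and Eif3a (0.63, SE 0.09), a scaffold of the factor that binds the small subunit. Of 77 mitochondrial ribosomal protein genes, which build a separate ribosome, 6 rose and 0 fell (median 0.16), among them Mrpl19 (0.64) and Mrpl35 (0.53). Of 16 elongation and termination factor genes only Gspt1 (0.39, SE 0.09) and Etf1 (0.32, SE 0.09), both of translation termination, passed, and both rose. These shares stand beside 13.7% of all genes called higher and 3.1% lower.

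In the same comparison 14 genes with mRNAs known to carry the oligopyrimidine tract, other than ribosomal proteins, had a median of 0.1 and 0 called by limma, with Pabpc1 (0.34, SE 0.10, limma adjusted p = 0.0526) and Eef1a1 (0.17, SE 0.08) nearest to the threshold. Of 17 genes of the mTORC1 and S6 kinase pathway, Sesn2 (0.71), Rheb (0.6), Mlst8 (0.41) and Larp4 (0.38) rose. The S6 kinase gene Rps6kb2 fell, at 6.83 on average in MPTP cords and 7.4 in control cords (difference -0.57, SE 0.13, limma adjusted p = 0.0212). Over all genes 13.7% were called higher and 3.1% lower, and the activity of the pathway was not tested. Fau, whose product is processed to a small subunit protein, was at 10.18 and 10.2 in MPTP cords against 10.22 and 10.37 in control cords (difference -0.11, SE 0.08, limma adjusted p = 0.38).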

How the data were processed

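Per the submitters' processing notes, the authors used Affymetrix Expression Console and RMA, which corrects background, equalises distributions and summarises probes, and deposited 1 log2 signal per probe set and array. That the scale is log2 was inferred from how high the values reach. Of 35557 probe sets, 21789 had 1 symbol in the platform annotation, 1621 several and 12147 none. Probe sets with 1 symbol and a mean above the 30th percentile (4.3, log2) were kept, and the one with the highest mean represented each gene. RefSeq lists 81 protein-coding genes by the rule, of which 26 had no probe set of their own here and were not analysed. All 55 matched RefSeq by Entrez identifier.

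Groups came from the labels. Group means were estimated over the 8 arrays together by limma 3.58.1 under R 4.3.3 (lmFit, eBayes with an intensity trend, 4 residual and 5.34 prior degrees of freedom), with Benjamini-Hochberg adjustment over 16026 genes in each of 7 contrasts and two-sided p-values. The number of arrays limits the precision. No scan date or slide was used here, so no batch was tested. Replicate numbers did not pair arrays: replicate differences correlated between groups at -0.328 to 0.174 across genes. Alternatives were other scalings, filters, moderation, probe set choice, a block, a muscle covariate and arrays left out, with 1 pair of arrays left out together added after seeing the data. Named genes are those called, the 2 or 3 with the largest differences of each sign per contrast, the 3 brightest and 3 dimmest, common reference genes and paralogs, and the 2 genes of smallest p per related list. Others named (Rpl6, Rps13, Rpsa, Rps9, genes whose probe sets disagreed, further related genes called, and left-out symbols) were picked after their values were seen. The genes and lists were chosen with earlier results of these data known. Plots used matplotlib 3.10.9 in Python 3.11.15.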

Additional observations from a re-analysis of the deposited data

How the results depend on the processing

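In MPTP minus control 12 genes were called, all lower, with a median difference of -0.13. After cyclic loess these became 21 (4.69% of all genes called lower) and -0.28. With arrays centred on their medians 0 were called lower (1.36% of all genes) and 1, Rplp0, higher (25.1%), and the median was 0.03. The count was 5 with eBayes without a trend (2.56% of all genes lower) and 0 with the muscle covariate (0.0187%). Leaving out 1 array gave counts of 0 to 15 (at most 14 lower and 1 higher) and medians of -0.23 to -0.04. For acupoint minus control (10 genes) the count was 24 after quantile normalization again, 30 after cyclic loess, 4 with centring, 6 without a trend, and 0 with the muscle covariate and with only the groups compared, while leaving out 1 array gave 0 to 18 and medians of -0.3 to -0.12. Its median was -0.06 with control replicate 2 and acupoint replicate 1 both left out, added after seeing the data. In acupoint minus control 2.98% of all genes were called lower after quantile normalization, 3.3% after cyclic loess and 1.04% with centring. The share was 1.54% without a trend, 0.0562% with the muscle covariate and 0.275% with only the groups compared. For non-acupoint minus control (9 genes) the count was 19 after quantile normalization, 26 after cyclic loess (median -0.29) and 0 with the muscle covariate, the median was 0.02 with centring, and leaving out 1 array gave 1 to 15 and medians of -0.23 to -0.04. For the 3 MPTP groups minus control (17 genes) the count was 31 after quantile normalization, 39 after cyclic loess, 8 with centring (6 lower and 2 higher, median -0.02), 11 without a trend and 0 with the muscle covariate, and leaving out 1 array gave 6 to 25 and medians of -0.27 to -0.06. Counts between treated groups stayed at 0, except 5 in acupoint minus non-acupoint needling without acupoint replicate 2. There the medians ran from -0.13 to -0.01, in acupoint minus MPTP from -0.14 to -0.02 and in non-acupoint minus MPTP from -0.05 to 0.03. In non-acupoint minus control 5.03% of all genes were called lower after quantile normalization, 5.87% after cyclic loess and 0.0187% with the muscle covariate. In the 3 MPTP groups minus control these shares were 6.7%, 8.31% and 0.0374%, and 5.02% without a trend. Centring called 2.19% of all genes lower and 33.8% higher in the latter comparison.

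With the replicate number as a block, counts were 9, 8, 8 and 15 in the 4 comparisons with control, and 0 between treated groups. The shares of all genes called lower in these 4 comparisons were 2.5%, 1.62%, 2.93% and 4.5%. The replicate numbers are shared labels only, since replicate differences correlated from -0.328 to 0.174 between groups.

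With the muscle covariate Rps14, called lower in MPTP minus control, was at 0 (limma adjusted p = 0.998). Among genes called or with the largest differences in a comparison, signs turned for 13 other differences, counting 1 that came to 0. None of these had passed the threshold in the fit to all arrays. Signs of the remaining ribosomal protein genes were not counted. With arrays centred on their medians further signs turned, since the family median in MPTP minus control went from -0.13 to 0.03. With the muscle covariate Rpl10 was at -0.05 and Rpl4 at -0.06 in MPTP minus control, Rpl22 at -0.07 and Rpl10 at -0.02 in acupoint minus control, Rpl29 at -0.02 and Rpl10 at -0.03 in non-acupoint minus control, and Rpl22 at -0.11 and Rpl10 at -0.03 in the 3 groups minus control. After cyclic loess Rpl22 was at -0.01 and Rplp0 at 0 there. Rps14 in acupoint minus non-acupoint needling was at -0.05 without acupoint replicate 1, with or without control replicate 2, and at 0.36 without acupoint replicate 2. Rpl22 in acupoint minus control was at -0.09 without acupoint replicate 2 and at 0.31 without acupoint replicate 1. The cause of these changes was not tested, apart from the fewer arrays in fits that leave some out. Leaving out Rpl7l1 changed no count. At the 50th percentile filter the dimmest genes, Rpl12 and Rplp2, were not tested. The deposited values carry no background reading, which limits what can be said of these 2 genes.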

Other observations

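Among paralog genes left out by symbol, Rps4l rose after MPTP, with 7.72 and 7.79 on the MPTP arrays against 7.18 and 7.38 on the control arrays (difference 0.48, SE 0.12, limma adjusted p = 0.0304), opposite in sign to Rps4x at -0.32. Rpl3l, the muscle-enriched paralog of Rpl3, was at 4.39 and 4.42 in MPTP cords and 4.61 and 4.55 after acupoint needling, against 4.65 and 5.07 on the control arrays (difference -0.46, SE 0.17, limma adjusted p = 0.102), highest on control replicate 2, where skeletal muscle markers were highest too. Rps27l, a target of p53, was at -0.07 (SE 0.16), Rpl32l at -0.34 (SE 0.12) and Rpl10l at 0.38 (SE 0.14), none of which passed.

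A further 237 probe sets carried several symbols, at least 1 of them a cytosolic ribosomal protein gene, and entered no comparison above. In the 235 of them above the filter value the median MPTP minus control difference was -0.03, with 142 negative. It was 0.01 over all 24890 probe sets above that value, with 12012 negative, and -0.13 over the 55 probe sets used for the genes. Both MPTP arrays lay below both control arrays for 87 of these 235, against 7217 of the 24890 probe sets of any kind above that value. Of the 26 genes without a probe set of their own, 19 stood on such probe sets.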
